A study of Mus musculus with 2 samples.

Results

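The mouse miRNA entries examined were mmu-miR-3473b, mmu-miR-3473e, mmu-miR-709, mmu-miR-574-5p, mmu-miR-7667-5p and, as the opposite arm of the miR-574 hairpin, mmu-miR-574-3p. They were chosen by name from earlier results of these data. There, the mature forms other than miR-574-3p were listed as matching other transcripts, and 1 entry took a large share of a library. For miR-709 no sequence was found here, so its matches were not examined. The entries are 6 of the 1214 miRNA entries of the deposited table. Exosomes, small vesicles that cells shed, were collected from the medium of C57BL/6 mesenchymal stem cells (MSCs), stromal cells able to form bone, cartilage and fat, and of NIH3T3 cells, an immortalised fibroblast line of NIH Swiss mice that served as the control. Both cell types carried no stated allele or agent and grew for 72 hours in αMEM with 5% FBS, and the tissue that gave the MSCs is not named in the sources used here. Each cell type gave 1 library, so no test was possible and every difference below is without a check by replicates.

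A miRNA is cut from a hairpin precursor by Drosha and Dicer, and its seed, bases 2 to 8, pairs with target mRNAs. Some miRNA hairpins arose from repeats. Short interspersed elements of the B2 family, which derive from a tRNA gene and occur in very many mouse introns and 3′ UTRs, begin with letters close to those of miR-3473b, and simple UG repeats resemble miR-574-5p. For such miRNAs a sequenced fragment can equal the mature miRNA and equally a piece of an unrelated transcript. The table gives a count per entry and no read positions, so counts from a hairpin and from other matching transcripts cannot be told apart.

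The mature sequences are shown because the counts of these entries rest on them. They are RefSeq's on GRCm38.p6, found for 5 of the 6 entries, and are written 5′ to 3′ with the seed in capitals; none was found for miR-709.
miR-3473b: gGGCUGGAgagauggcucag
miR-3473e: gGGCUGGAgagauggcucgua
miR-7667-5p: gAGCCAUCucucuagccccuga
miR-574-5p: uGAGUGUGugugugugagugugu
miR-574-3p: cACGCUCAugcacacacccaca
The first 2 have the same seed and share their first 18 bases, differing only after them. No other of the 1054 miRNA entries with a sequence has that seed, and the seeds of the other 3 belong to no further entry. miR-7667-5p is written on the other strand of the same repeat letters: its first 12 bases, GAGCCAUCUCUC, are complementary to a run of miR-3473b. miR-574-5p holds an unbroken UG repeat of 12 bases, UGUGUGUGUGUG.

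The hairpin of miR-3473b is shown as an example, and its build is not that of every entry here. With the mature form in capitals it reads as follows.
Mir3473b: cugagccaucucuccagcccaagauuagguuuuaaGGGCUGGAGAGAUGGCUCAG
Its first 20 bases, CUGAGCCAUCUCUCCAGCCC, are the exact complement of the whole mature miRNA, so the stem has no mismatch along it, and the hairpin is 55 bases long. It lies on chr10:41670739-41670793 on the plus strand, opposite to Ccdc162, in one of its introns. miR-3473e (chr5:31667296-31667316) lies in an intron of Rbks, miR-709 (chr8:84086167-84086185) in an intron of Rfx1, and miR-7667-5p (chr17:29595538-29595559) in introns of Tbc1d22b and Gm28052, each on the strand of that gene. The arms of miR-574 (chr5:64970328-64970350 and chr5:64970364-64970385) lie in an intron of Fam114a1, also on its strand. The table gives mm10 positions, and for the 5 entries with a sequence they equal those of RefSeq.

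The libraries held 2500459 counts (MSC) and 1037147 (NIH3T3), of which 1028186 and 431007 were on miRNAs. CPM below means counts scaled so that the miRNA counts of a library sum to 1000000. A count of 0 would allow 2.92 CPM in MSC and 6.96 CPM in NIH3T3 exosomes, but all 6 entries were counted in both libraries. The mesenchymal miRNA markers were present in both libraries (6 of 6, summing to 244573 and 182213 CPM), which does not tell MSCs from fibroblasts. Most of these sums (167562 and 154264 CPM) was the entry miR-199a-3p, which is listed jointly with miR-199b-3p. All 5 blood cell markers were listed at a summed 275 and 462 CPM, 2 of 5 epithelial markers at 49.6 and 46.4 CPM, and the hepatocyte miR-122-5p at 9491 and 8088 CPM. Their part in the results was not tested.

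Of the 6 entries, miR-3473b, miR-3473e and miR-7667-5p were 2-fold or more lower in MSC exosomes, both arms of miR-574 were 2-fold or more higher, and miR-709 was within 2-fold. Among all 318 miRNAs that reached a floor of 100 CPM in at least 1 library, 26.1% were lower by this rule and 34.0% were higher. The 6 were partly chosen for their levels, so these calls describe them and nothing is read from their number. The median log2 ratio of MSC over NIH3T3 exosomes was -0.80 over the 6 and 0.28 over the 318. Nothing is read from this median either, as the 6 ratios ran from -4.57 to 1.84, on both sides of 0. Ratios and fold differences between the libraries are on the authors' normalized scale after adding 1 CPM, unless another scaling is named. They therefore differ from the ratio of the CPM values printed beside them. Square brackets hold 95% intervals that cover counting error only. miR-7667-5p reached 100 CPM through its NIH3T3 level alone.

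**Figure D1:**
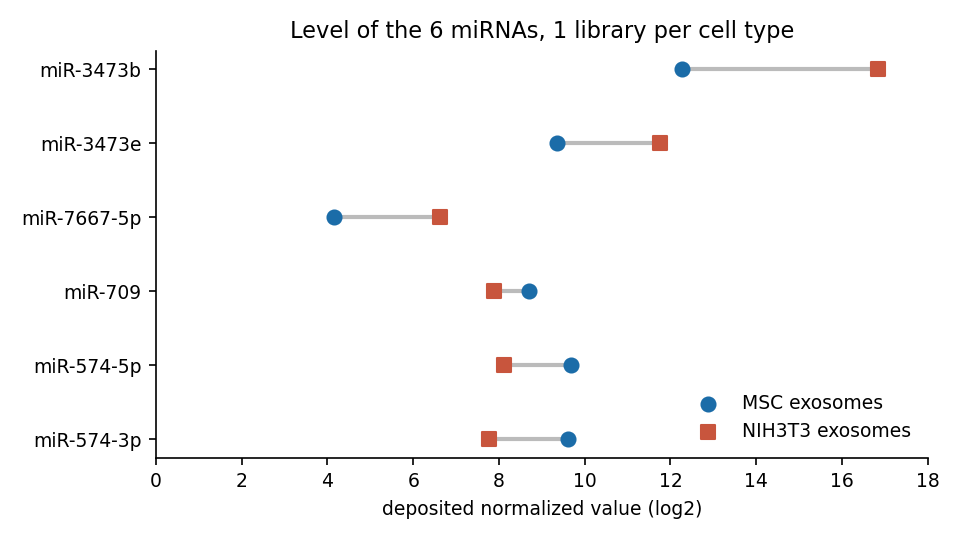
Authors' normalized value (log2, horizontal axis) of each of the 6 miRNAs in the single MSC library (circles) and the single NIH3T3 library (squares). The top 3 rows have their square to the right, most widely miR-3473b (12.28 and 16.85), and the lower 3 have it to the left.

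miR-3473b, reported in mouse microglia as a repressor of the cytokine signalling inhibitor Socs3, was the most abundant of the 6 in both libraries and the one that differed most. The MSC library held 7577 counts of it and the NIH3T3 library 64134, or 7369 and 148800 CPM. The authors' normalized values were 12.28 and 16.85 (log2). Among all miRNA entries it was rank 28 for MSC and rank 2 for NIH3T3 exosomes. Its level was 23.8-fold lower in MSC exosomes, a log2 ratio of -4.57 [-4.61, -4.54]. Only 19 of the 318 miRNAs had a lower ratio.

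Its close relative miR-3473e moved the same way by a smaller amount. It was counted 993 times for MSC and 1869 times for NIH3T3 exosomes (966 and 4336 CPM), and was rank 89 and rank 35. The level was 5.28-fold lower in MSC exosomes, with a log2 ratio of -2.40 [-2.51, -2.29]. The intervals of the 2 relatives lie far apart. The balance between them needs no scaling: there were 7.63 counts of miR-3473b for each of miR-3473e in MSC exosomes and 34.3 in NIH3T3 exosomes. As a share of the pair, miR-3473b made up 88.4% (Wilson 95% interval 87.7 to 89.1) and 97.2% (97.0 to 97.3). A fragment that ended within the 18 shared bases would equal both entries, and the sources used here do not say how such fragments were assigned, so the split between them is uncertain.

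miR-7667-5p, which carries the complementary letters, was by far the least abundant of the 6. Its counts were 27 in the MSC and 54 in the NIH3T3 library, or 26.3 and 125 CPM. It was 5.43-fold lower in MSC exosomes (log2 ratio -2.44 [-3.21, -1.80]). Its interval contains the ratio of miR-3473e and excludes that of miR-3473b.

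miR-709, described in mouse cells as a nuclear miRNA that binds the primary transcript of miR-15a and miR-16-1, went the other way by less than the 2-fold bound. It was counted 634 times for MSC and 129 times for NIH3T3 exosomes (617 and 299 CPM). The log2 ratio was 0.81 [0.53, 1.09], and the interval crosses the bound. Scaled by the miRNA total of each library it was 1.04, past the bound, as were 37.7% of the 318, so that its call depended on the scaling.

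miR-574-5p, which in human cells has been described as a ligand of Toll-like receptors when carried in exosomes, and its opposite arm were both higher in MSC exosomes. For miR-574-5p the MSC library held 1248 counts and the NIH3T3 library 151 (1214 and 350 CPM). On the authors' scale this was a 2.94-fold difference with a log2 ratio of 1.55 [1.31, 1.81]. miR-574-3p had 1198 and 119 counts (1165 and 276 CPM), on the same scale a 3.58-fold difference with a log2 ratio of 1.84 [1.57, 2.13]. The intervals of the arms overlap. This overlap is no test of their difference, and what other matching transcripts add to the counts of either arm was not tested.

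**Figure D2:**
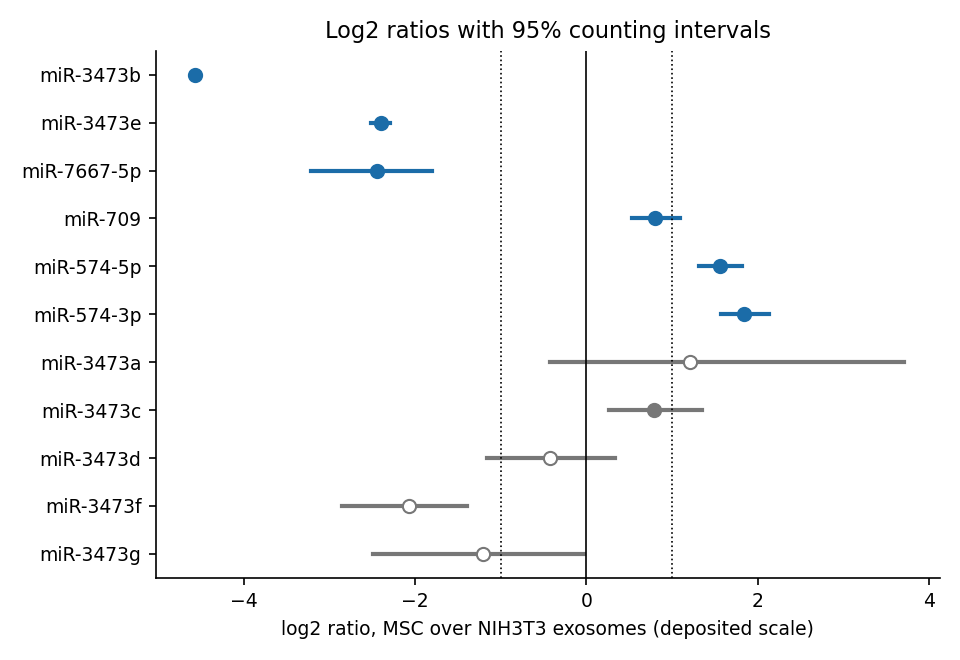
Log2 ratio of MSC over NIH3T3 exosomes (horizontal axis) with its 95% counting interval for the 6 miRNAs (upper rows) and the 5 other miR-3473 entries (lower rows); open points were under 100 CPM in both libraries, and dotted lines mark 2-fold. miR-3473b lies alone at -4.57, miR-3473e and miR-7667-5p lie together near -2.4, and the arms of miR-574 lie past the upper line.

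Within each library the arms of miR-574 were nearly equal. The 5p arm made up 51.0% (49.0 to 53.0) of both arms in MSC exosomes, compared with 55.9% (49.96 to 61.7) in NIH3T3 exosomes, and both intervals include equal arms. For most hairpins 1 arm is kept and the other is degraded. Of 46 other hairpins with both arms among the 318 miRNAs, 9 had arms within 2-fold of each other in MSC exosomes and 9 in NIH3T3 exosomes, with a median absolute log2 balance of 2.93 and 3.38. The balance of miR-574 differed by 0.28 on the log2 scale between the libraries, against a median of 0.81 over the other hairpins, 6 of which differed by less.

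In order of counts, the 6 entries ran miR-3473b, miR-574-5p, miR-574-3p, miR-3473e, miR-709 and miR-7667-5p in MSC exosomes. In NIH3T3 exosomes miR-3473e took the second place, followed by miR-574-5p, miR-709, miR-574-3p and miR-7667-5p. Counting error did not separate the arms of miR-574 in MSC exosomes. In NIH3T3 exosomes it did not separate miR-574-5p from miR-709 (53.9% of the pair, 48.1 to 59.7) or miR-709 from miR-574-3p (52.0%, 45.8 to 58.2). All other neighbours were separated by it.

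**Figure D3:**
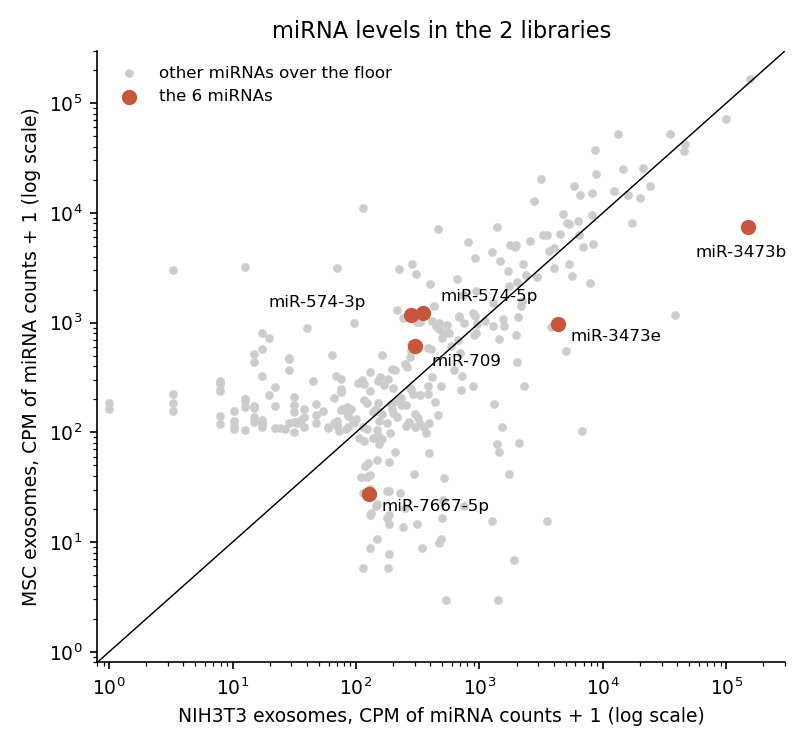
Level in MSC exosomes against level in NIH3T3 exosomes (both CPM of miRNA counts plus 1, log axes) for the 318 miRNAs over the floor; the line marks equal levels. miR-3473b (7369 and 148800 CPM) lies far to the right of the line among the most abundant miRNAs, whereas the arms of miR-574 and miR-709 lie above it.

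In sum the 6 entries took 1.14% (1.12 to 1.16) of all miRNA counts from MSC exosomes, compared with 15.4% (15.3 to 15.5) of those from NIH3T3 exosomes. Nearly all of the difference was miR-3473b, with 0.737% (0.721 to 0.754) and 14.9% (14.8 to 15.0). The other 5 held 0.399% and 0.539%. An entry of this size bears on every value scaled by a library total. The median log2 ratio of the 318 miRNAs was 0.51 when each library was scaled by its miRNA total and 0.29 when the 6 entries were left out of that total, a shift of -0.22. With that change the number of higher miRNAs went from 120 (37.7%) to 108 and that of lower ones from 76 (23.9%) to 82. The authors' scale gave 108 and 83.

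Matches in other transcripts were counted as other annotated genes with a transcript sharing 18 bases with the mature miRNA, the gene of the hairpin and any gene overlapping it left out. miR-3473b matched 533 genes, of which 361 were protein coding and 21 were other miRNA genes. miR-3473e matched 421 genes, and 417 of these were among those of miR-3473b, which is 99.0% of the shorter list and 78.2% of the longer. Far fewer genes were matched by miR-574-5p (61) and miR-7667-5p (53), and none by miR-574-3p. These numbers depended on the match length. With 16 bases they were 774 genes for miR-3473b, 628 for miR-3473e, 237 for miR-574-5p, 98 for miR-7667-5p and 5 for miR-574-3p. With 20 bases they were 359, 0, 36, 7 and 0 in the same order, so that miR-3473b had the most at each length, while the order of the others changed. miR-709 was not analysed here in this respect.

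**Figure D4:**
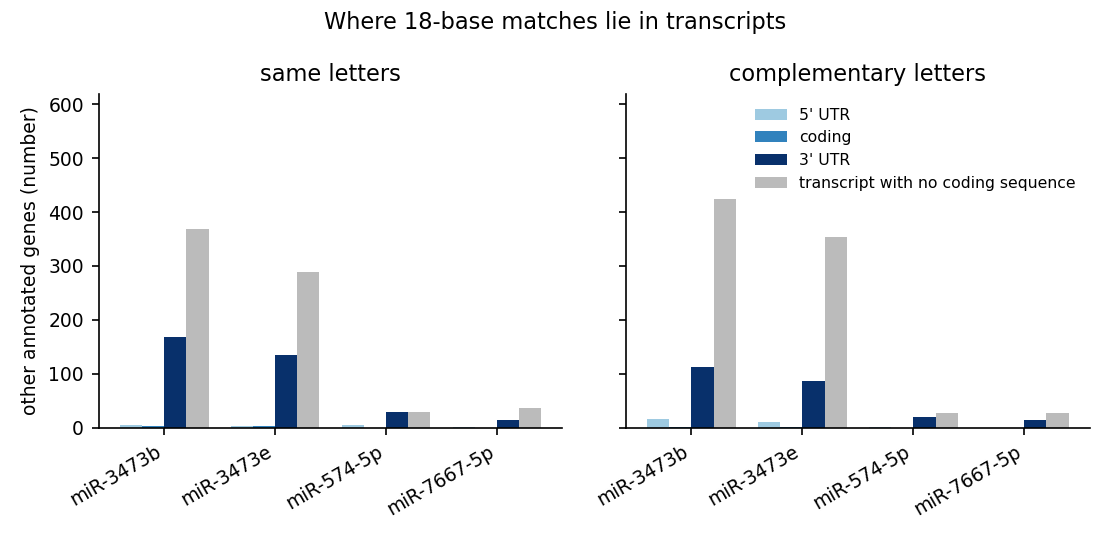
Number of other annotated genes (vertical axis) with an 18-base match to each of 4 miRNAs, by the part of the transcript in which it lies, for the letters of the miRNA (left) and their complement (right); a gene can count in more than 1 part. For miR-3473b and miR-3473e the tallest bars are transcripts with no coding sequence and the next are 3′ UTRs, and bars for coding sequence are at 4 genes or fewer.

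These matches lay mostly outside coding sequence. For miR-3473b, 368 genes had the match in a transcript with no coding sequence, 169 in a 3′ UTR, 5 in a 5′ UTR and 4 in coding sequence. A gene with several transcripts can count more than once, and a transcript with no coding sequence can belong to a protein coding gene. miR-574-5p had its matches in 3′ UTRs of 29 genes and in coding sequence of 0. The complement of miR-3473b, to which the miRNA could pair over 18 bases, occurred in transcripts of 540 genes, 112 of them in a 3′ UTR, so both orientations of the letters are found in transcripts of similar numbers of genes. All 20 bases of miR-3473b were found in the 359 genes given above, whereas 20 bases of miR-3473e were found in no other gene, so the shared 18 bases are common in transcripts and the end that sets miR-3473e apart is not. The letters AAGAGC, which follow in the head of a B2 element, were looked for on the transcript strand in the 20 bases after a complete match to miR-3473b. Complete matches with 20 transcript bases after them numbered 427, counted in each transcript of 356 genes, and matches closer to a transcript end were left out. The letters followed 263 of the 427 (61.6%), while 0.641% of all 20-base windows of annotated transcripts hold them.

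**Figure D5:**
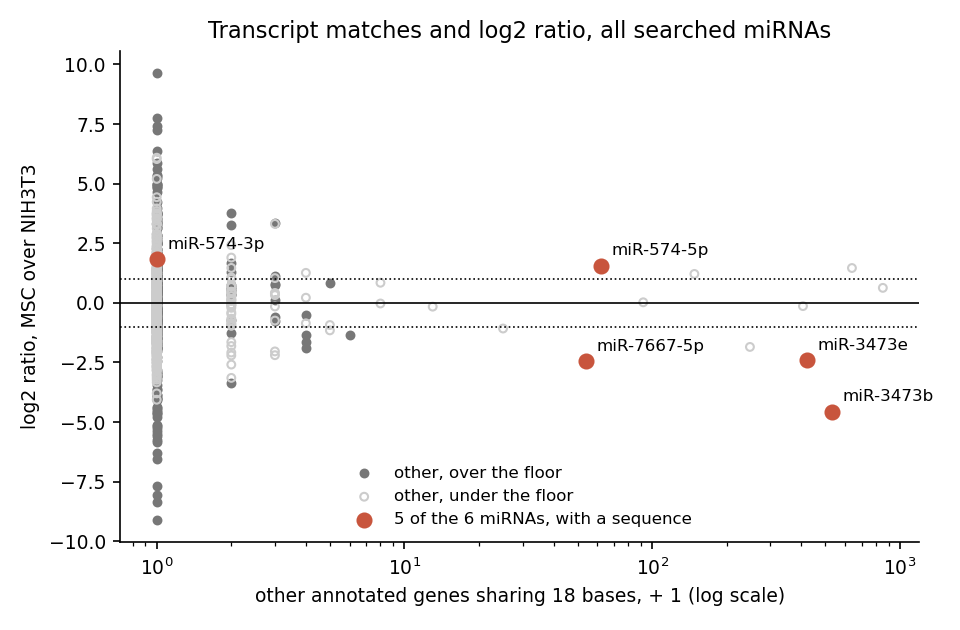
Log2 ratio of MSC over NIH3T3 exosomes (vertical axis) against the number of other annotated genes sharing 18 bases plus 1 (log axis) for the 1054 miRNA entries with a sequence; open points were under 100 CPM in both libraries, and dotted lines mark 2-fold. To the right, 4 of the 6 miRNAs are the only filled points with 10 or more genes, and 3 of these lie below the lower dotted line. Of these 3, 1 reached 100 CPM through its NIH3T3 level alone. Of all 318 miRNAs over the floor, with or without a sequence, 26.1% were 2-fold or more lower in MSC exosomes. The 6 were partly chosen for their levels, so nothing is read from the number below the line.

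Such sequences were rare among the miRNA entries. Of 1054 searched, 965 matched 0 other genes, 12 matched 10 or more (1.14%) and 7 matched 100 or more (0.664%). miR-3473b and miR-3473e were among the 7, and the other 5 were under 100 CPM in both libraries. The 7 held 0.851% of miRNA counts in MSC and 15.3% in NIH3T3 exosomes, but without miR-3473b and miR-3473e only 0.0176% and 0.0118%. Among the 318, the 250 entries with 0 matches had a median log2 ratio of 0.24, with 87 higher, 65 lower and 98 within 2-fold, and the 26 with 1 to 9 matches a median of 0.42, with 6 higher, 6 lower and 14 within.

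The 5 other entries with 100 or more matches were mixed in direction. Those not named miR-3473 share no run of 10 or more bases with miR-3473b, so they matched transcripts by other letters. The counts of the 5 are given for MSC and then NIH3T3 exosomes. miR-1195, with 639 matched genes, had 87 and 11 counts (log2 ratio 1.46 [0.58, 2.55]). miR-3470b, which had the most matches at 852 genes, had 31 and 7 counts (0.63 [-0.55, 2.09]), and miR-706 had 28 and 11 (-0.14 [-1.19, 1.01]). miR-466i-3p, with 14 and 19 counts, was lower in MSC exosomes (-1.85 [-3.04, -0.86]). By size 2 of the 5 were higher and 1 was lower, against 23.8% and 25.5% of all 1214 entries without a floor.

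The fifth of them, miR-3473a, belongs to the miR-3473 family, whose 5 other entries were few in counts and mixed in direction. miR-3473a shares 16 bases with miR-3473b and had 21 and 3 counts (log2 ratio 1.21 [-0.43, 3.71]), an interval that includes equal levels. It is shown here with miR-3473c, which starts with the complementary letters of the other strand.
miR-3473a: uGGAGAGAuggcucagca
miR-3473c: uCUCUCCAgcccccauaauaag
The first 12 bases of miR-3473c, UCUCUCCAGCCC, are complementary to miR-3473b. It was the 1 family entry beside miR-3473b and miR-3473e over 100 CPM, at 175 and 36 counts (log2 ratio 0.78 [0.27, 1.35]). miR-3473f, which shares 11 bases with miR-3473b, had 28 and 43 counts (-2.07 [-2.85, -1.39]), miR-3473g 14 and 12 (-1.20 [-2.49, -0.02]) and miR-3473d 50 and 24 (-0.42 [-1.16, 0.34]). The longest run that miR-3473g shares with miR-3473b is 6 bases, and miR-3473d has a complementary run of 8. Among searched entries with neither a miR-3473 nor a miR-7667 name, the longest run was 9 bases, so these 2 are relatives by name. Summed, the 5 took 0.0280% (0.0250 to 0.0314) of the MSC miRNA counts, compared with 0.0274% (0.0229 to 0.0328) of the NIH3T3 ones. miR-3473c alone supplied 175 and 36 of the 288 and 118 counts in these sums. On the authors' scale miR-3473f and miR-3473g had intervals wholly below 0, as had miR-3473b and miR-3473e. That of miR-3473g, at 14 and 12 counts, ended at -0.02. Scaling by the miRNA total shifts ratios up by 0.23, and the interval of miR-3473g then includes 0. The interval of miR-3473c lay above 0 and those of miR-3473a and miR-3473d included 0. Of the entries complementary to miR-3473b over 12 bases, miR-7667-5p was lower in MSC exosomes and miR-3473c was within 2-fold on the authors' scale. The CPM of miR-3473c was 2.04-fold higher in MSC exosomes, so that its call depended on the scaling.

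With 2 libraries the ratio is the only pattern by which other miRNAs can be likened to these. Nearest to miR-3473b among the 318 were miR-6975-3p (24 and 216 counts, -4.60), miR-431-5p (14 and 133, -4.63) and miR-154-5p (5 and 49, -4.50), all of them with few counts in MSC exosomes and none with its abundance. miR-3473e and miR-7667-5p lay nearest to miR-423-3p (451 and 863, -2.42), to each other and to miR-6923-3p (30 and 56, -2.35). miR-709 lay nearest to miR-350-3p (0.80), miR-25-3p (0.81) and miR-3473c. For miR-574-5p the nearest were miR-322-5p (1.56), miR-128-3p (1.58) and miR-15a-5p (2.83-fold), and for miR-574-3p miR-130a-3p (1.84), miR-365-1-5p (1.83) and miR-708-3p (1.85).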

How the data were processed

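Small RNA of exosomes was measured in 1 MSC and 1 NIH3T3 library. Per the labels' protocols, RNA was isolated with an exoRNeasy kit and libraries were made with a QIAseq miRNA kit; the same text names a microarray. The authors deposited raw counts per entry (1214 miRNAs and 160 piRNAs), which are whole numbers, and normalized values on a log2 scale, per the file headers. Multiplying raw counts by 0.655 (MSC) or 1.84 (NIH3T3) and taking the log2 gave the deposited values, checked over all entries with a value above 0. The genome build is mm10, per the submitters' processing notes. The sources used here do not give the aligner, the counter, the use of molecular identifiers or the origin of the factors. Every miRNA entry had 10 or more counts in at least 1 library.

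Log2 ratios used the deposited scale with an added constant of 1 CPM, which is 0.734 on it. A miRNA entered the comparison at 100 CPM in at least 1 library (103 and 43.1 counts) and was called at 2-fold. Intervals of ratios are exact conditional (Clopper-Pearson) and those of shares Wilson, both 95%, computed with scipy 1.17.1 in Python 3.11.15. They cover counting error only and are too narrow where counts include PCR copies. Mature sequences of 1054 miRNA entries came from RefSeq and were searched in GENCODE M21 transcripts. Introns were searched only where an annotated transcript retains them. The other 160 entries were not searched. The ratio intervals and the search were tested on simulated data. Named were the 6 entries, the other miR-3473 and miR-7667 entries, up to 10 with 100 or more matched genes and the 3 nearest in ratio to each. The 6 entries, the lists and the rules were chosen with earlier results of these data known. Alternatives concerned scaling, added constant, floor and match length.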

Additional observations from a re-analysis of the deposited data

How the results depend on the processing

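No log2 ratio of the 6 entries changed sign under the 5 other scalings and the 2 other added constants (0.1 and 10 CPM). For miR-3473b the ratio was -4.34 scaled by the miRNA total, -4.35 by the total of all entries, -4.74 by the miRNA total after leaving out the 10 leading miRNAs of either library and -4.85 centred on the median. For miR-3473e these were -2.17, -2.18, -2.57 and -2.68. Centring gave 0.53 for miR-709, 1.28 for miR-574-5p and 1.56 for miR-574-3p. miR-709 passed 2-fold by the miRNA total (1.04) and by the total of all entries (1.03), which made 3 higher entries in place of 2. At a floor of 1000 CPM, miR-7667-5p (26.3 and 125 CPM) and miR-709 (617 and 299 CPM) dropped out. For that reason 2 entries were lower in place of 3, and no call changed. The share of all miRNAs that were lower at that floor was not computed, so nothing is read from this number. Of the 5 other entries with 100 or more matched genes, 0 were over the floor, while with no floor and at 10 CPM alike 1 was lower and 2 were higher. With matches of 16 and 20 bases, miR-574-5p matched 237 and 36 genes and miR-7667-5p 98 and 7; miR-3473e matched 0 genes at 20 bases and miR-574-3p 5 at 16. The match length itself sets these numbers. Matches of miR-709 under the alternatives were not run. No paired analysis was possible because each group has 1 library. Depth limits miR-7667-5p most, at 27 and 54 counts.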
